A study of Mus musculus with 19 samples.

Results

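Proliferating stromal cells of the injury site were analysed as cells that carried the stromal receptor gene Pdgfra together with transcripts of dividing cells. They were selected on their unique molecular identifiers (UMIs, each of which counts 1 captured transcript). A barcode was taken as such a cell when it had 500 genes or more, no more than 25% of its UMIs from mitochondrial genes, at least 1 UMI of Pdgfra, at least 1 UMI each of 3 or more of the 5 cycle genes Mki67, Top2a, Birc5, Cdk1 and Ccna2, at most 1 UMI of the leukocyte gene Ptprc, none of the endothelial gene Cdh5 and fewer than 2 of Gzme. This gave 1195 cells among 9859 stromal cells, which passed every part of the gate other than the cycle genes, and among 39541 cells in all. A further 6464 stromal cells held no UMI of the 5 cycle genes and are called non-cycling below. The 19 libraries came from tissue at the Achilles tendon of mice that received a dorsal burn and Achilles tenotomy, a model of heterotopic ossification, in which bone forms in soft tissue after trauma. The groups were day 0 (4 libraries, taken without injury per the study's methods, although the labels also list the burn), day 3 (3 libraries), day 7 (4 libraries), day 7 with p7N3 (4 libraries) and day 21 (4 libraries). The peptide p7N3, which activates the receptor CD47, was injected daily from before until shortly after the injury, and its replicate 4 carries no day in the labels and was placed at day 7 by the methods. The labels name C57 and LysmCre/Tgfb1fx/fx mice for the whole series (in the latter Cre is driven by a myeloid gene), assign no genotype to a library, and leave the vehicle of the untreated day 7 group unnamed. The labels do not give the age of the animals, and the study's methods describe its wild-type mice as young adult males. Its reporting summary mentions replicates at each time point meant to show variability between mice. The labels do not say whether libraries of a group came from separate animals, so that p-values measure the spread between these libraries.

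Stromal cells with Pdgfra include the fibroblasts and mesenchymal progenitors of connective tissue, which are mostly quiescent and divide after injury. In dividing cells, genes for DNA synthesis are transcribed around the start of S phase by E2F factors, and genes for chromosome segregation are transcribed later, in G2 and mitosis, through promoters that often pair a CCAAT box with a cell cycle homology region. Mki67 encodes the chromosome surfactant used as the Ki-67 stain, Top2a untangles DNA before segregation, Birc5 encodes survivin of the chromosomal passenger complex, and Cdk1 and Ccna2 encode the kinase and cyclin that drive entry into mitosis.

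The cycle genes that chose the cells were well covered in most of them. Birc5 was read in 96.7% of the 1195 cells, Cdk1 in 89.1%, Ccna2 in 86.3%, Top2a in 79.0% and Mki67 in 78.6%. All 5 genes were read in 631 cells, 4 in 288 and 3 in 276. The 276 cells just inside the gate held a mean of 0.873 UMIs of Mki67, 0.699 of Top2a and 4.42 of Birc5, with a median of 24149.5 UMIs in all. The 488 stromal cells just outside it, with 2 of the 5 genes, held 0.256 UMIs of Mki67, 0.385 of Top2a and 1.71 of Birc5 and a similar depth, a median of 23106.5 UMIs. A further 1712 stromal cells held 1 of the 5 genes. The proliferating cells were deeper than the non-cycling cells in every library. Their median count per library was 39039 to 44916 UMIs at day 3 against 15140 to 20387.5 in non-cycling cells, and 18926 to 28892 at day 7 against 9471 to 15893. A gate on single UMIs passes deeper cells more easily, and values read at equal depth are given beside the shares below. Of 1490 cells with Pdgfra and at least 3 cycle genes, 147 were left out for Ptprc, of which 108 were from day 3, 130 for Cdh5 and 40 for Gzme, and some failed more than 1 of these. Ptprc was still read at 1 UMI in 231 of the proliferating cells, 124 of them among the 290 cells of day 3. No pair of libraries shared more than 22 cell barcodes.

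As read at full depth, proliferating cells made up much of the stroma at day 3, about 1 in 8 stromal cells at day 7, few at day 21, and none were found before injury. Stromal cells were deeper at day 3, with library medians of 30715.5 to 35406 UMIs, than at day 7, with 10591 to 19418. The shares at equal depth, given below, were lower and closer together. At day 3 they were 51.0%, 35.5% and 51.5% of the stromal cells in the 3 libraries (290 of 667 cells). At day 7 the shares were 9.24%, 14.5%, 8.41% and 17.4% (440 of 3613), and with p7N3 they were 14.2%, 10.7%, 12.9% and 18.0% (412 of 2967). At day 21 they were 1.79%, 1.15%, 0.781% and 5.74% (53 of 1739). The libraries of day 3 all lay above those of day 7, and those of day 21 all lay below, whereas the day 7 libraries with and without peptide overlapped. At day 0 the count was 0 of 873 cells, which allows a share of up to 0.344% from counting error alone, at a median depth of 4464 to 6247 UMIs per stromal cell.

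**Figure D1:**
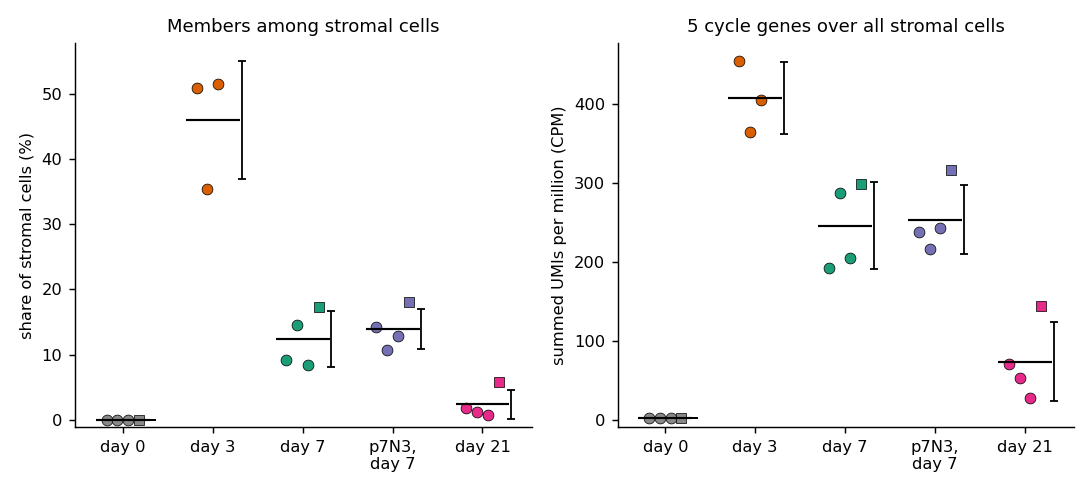
Share of proliferating cells among stromal cells (left, %) and summed level of the 5 cycle genes over all stromal cells (right, in CPM, the counts-per-million scale of UMIs), by group. Each point is a library, squares are replicate 4 of a group, the horizontal line is the mean and the bar beside it the SD, and the mean share ran from 0% at day 0 to 46.0% at day 3, 12.4% at day 7, 14.0% with p7N3 and 2.36% at day 21.

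The mean share was 46.0% ± 9.11 (SD, n = 3) at day 3, 12.4% ± 4.29 (n = 4) at day 7, 14.0% ± 3.08 (n = 4) with p7N3 and 2.36% ± 2.29 (n = 4) at day 21. In two-sided exact permutation tests over libraries, day 21 and day 0 each differed from day 7 at p = 0.0286, the smallest value that 4 against 4 libraries can give, and at 0.0571 after adjustment over the 4 comparisons. Day 3 differed from day 7 at an exact permutation p = 0.0571, the smallest that 3 against 4 libraries allow (adjusted 0.0762). None of the 4 passed the adjusted threshold. The difference between p7N3 and day 7 was 1.56 percentage points (exact permutation p = 0.543). With stromal cells thinned to 3000 UMIs, which left out 166 shallower cells, 144 of them among the 873 of day 0, the mean share was 8.34% ± 1.40 at day 3, 4.83% ± 1.37 at day 7, 5.03% ± 0.70 with p7N3, 0.970% ± 1.06 at day 21 and 0% at day 0, so that the order of the days was kept and the gap between day 3 and day 7 was smaller. Replicate 4, a later deposit than the others, had the highest share in the day 7, p7N3 and day 21 groups.

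The cycle genes were also compared over all stromal cells together, cycling or not, in which the cycle part of the gate takes no part. Counts were summed per library, and edgeR's quasi-likelihood test was run over all genes. Between day 3 and day 7, 20.7% of 12882 genes were called higher and 20.8% lower at an adjusted p under 0.05. Against this, 31 of 38 S-phase genes and 24 of 44 G2/M genes rose at day 3, and none fell. Mki67 stood at 41.2, 42.2 and 38.4 CPM (UMIs of the gene among all UMIs, as counts-per-million) at day 3 and at 17.6, 23.7, 17.2 and 21.6 CPM at day 7 (log2 fold change 1.07 ± 0.13 (SE), adjusted p = 0.000218 by edgeR). Cdk1 was the only one of the 5 cycle genes that was not called, with 73.5 ± 14.0 (SD) CPM at day 3 and 65.2 ± 15.7 at day 7. Between day 21 and day 7, 17.1% of 12777 genes were called higher and 16.1% lower, and 34 of 38 S-phase genes, all 44 G2/M genes and all 5 cycle genes of the gate fell. Top2a was 11.4, 7.52, 6.10 and 28.1 CPM at day 21 and 38.04, 43.8, 40.5 and 49.5 CPM at day 7 (log2 fold change -1.48 ± 0.35, adjusted p = 0.00982 by edgeR). Against day 7, 24.9% of 12070 genes were higher and 26.2% lower at day 0, and 30 S-phase and 41 G2/M genes fell. No UMI of Top2a or Cdk1 was read in any stromal cell at day 0. With p7N3, none of 13057 genes was called (0%) by edgeR, 1693 had an unadjusted p under 0.05 and DESeq2 called 130, and the summed level of the 5 cycle genes was 253 ± 43.7 CPM against 246 ± 55.0. Leukocyte markers moved with the cycle genes in these sums. All 10 macrophage and all 5 neutrophil markers rose at day 3, 6 of 10 and 4 of 4 measured fell at day 21, and 9 of 10 and 2 of 2 measured fell at day 0. The macrophage markers, led by Lyz2 at day 3 and day 7 and by Cd74 at day 21 and day 0, summed to 3481 ± 206 CPM at day 3, 972 ± 156 at day 7, 467 ± 273 at day 21 and 203 ± 85.5 at day 0. The neutrophil markers, led by S100a8 at day 3, day 7 and day 21 and by S100a9 at day 0, summed to 1855 ± 466, 144 ± 57.4, 13.7 ± 9.74 and 9.93 ± 6.87 CPM, and no marker of either list was at 0 throughout a group. The part of leukocyte RNA in the cycle gene result was not tested.

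Macrophages of the same libraries passed the cycle part of the gate at lower shares than the stroma at day 3 and day 7, and endothelial cells followed the order of the days seen in the stroma. The same count of at least 3 cycle genes was met by 4.16% to 4.48% of macrophages (cells with Ptprc and Csf1r and without Pdgfra or Cdh5) at day 3, by 1.38% to 1.70% at day 7, by 0.921% to 2.59% with p7N3 and by 0.962% to 1.89% at day 21. The gap between stroma and macrophages was 41.6 ± 9.16 percentage points at day 3 and 10.8 ± 4.44 at day 7. An exact permutation test over libraries gave p = 0.0571, the smallest it allows (adjusted 0.0762), and did not pass the threshold. With both cell types thinned to 3000 UMIs the gap was 6.87 ± 1.02 points at day 3 and 4.13 ± 1.48 at day 7 (exact permutation p = 0.114). Endothelial cells were not thinned. Among endothelial cells (Cdh5 without Pdgfra or Ptprc) the share was 33.8% ± 18.4 at day 3, where only 72 such cells were read, 12.3% ± 1.53 at day 7 and 2.31% ± 0.891 at day 21. Endothelial cells at day 7 thus passed the cycle part of the gate at a share close to that of the stroma.

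The label of the cells was checked against marker genes of stroma and of other cell types. Fibroblast collagens were abundant in them, with Col1a1 at 7172, 7979 and 7267 CPM in the 3 libraries of day 3 and at 15001, 12422, 16503 and 11253 CPM in the 4 of day 7. The 10 genes of the stromal identity list, Col1a1 and Pdgfra among them, summed to a mean of 37053 CPM, against 56903 in non-cycling cells. Of these, 4 were higher and 6 lower in the mean, 5 of them lower in every library, with a median log2 ratio of -0.45. Against non-cycling cells of like depth, in 10 libraries, the median was -0.16, where all non-cycling cells gave -0.49. Their summed macrophage markers came to 2488 ± 121 CPM at day 3, 643 ± 134 at day 7, 635 ± 145 with p7N3 and 156 ± 40.5 (n = 2) at day 21. Endothelial markers, of which the gate itself sets Cdh5 to 0, summed to at most 28.8 CPM and lymphocyte markers to at most 6.92 CPM in any library. Other markers were higher. The neutrophil marker S100a8 was at 916 ± 291 CPM at day 3, and haemoglobin transcripts summed to 8542 CPM in a library of day 21. Rgs5, of the pericyte list, was at 95.6 ± 37.9 CPM with p7N3 and 14.2 ± 4.74 at day 7. All 41 measured genes of the G2/M list and 32 of 33 of the S-phase list were higher than in non-cycling stromal cells of the same library in each of the 13 libraries with at least 10 proliferating cells, as were 17.7% of all 7859 genes at 10 CPM or more. This contrast is close to the one that chose the cells, so it is given as a description, without a test.

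Beside the non-cycling cells, the proliferating cells carried more of the transcripts for chromosome segregation and DNA synthesis, more for glycolysis and ribosome assembly, and fewer for the resting, adventitial fibroblast state. Ratios were taken per library as log2((CPM + 1)/(CPM + 1)) over genes with a mean of at least 10 CPM, and the median over all 7859 such genes was 0.05. Ube2c, which loads ubiquitin for the anaphase-promoting complex, had a mean ratio of 6.06 ± 1.12 (SD, n = 13), Cdc20, an activator of that complex, 5.52, Ccnb1, a mitotic cyclin, 5.51 and Tpx2, a spindle assembly factor, 5.46. In the S-phase list, Rrm2, a subunit of ribonucleotide reductase, had 4.13 ± 0.40 and Uhrf1, which copies DNA methylation, 3.82. High ratios outside the lists belonged to Hist1h2ap, a replication-dependent histone (7.32, a gene with near-identical copies whose reads may be split), Pbk, a mitotic kinase (5.93), Mxd3, a Max-binding repressor (5.30), Fam64a, a regulator of mitosis (5.23), and Spc25, of the Ndc80 kinetochore complex (5.22). The median over the glycolysis list was 0.75 and over the ribosome assembly list 0.73, with Pgk1 at 1.09 ± 0.42 and the nucleolar gene Nop58 at 1.12 ± 0.34. Against non-cycling cells of like depth, in the 10 libraries with at least 10 of these, none of them of day 3, the medians were 0.34 and 0.38, and against all non-cycling cells in the same 10 libraries 0.81 and 0.64.

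Lower in proliferating cells were the genes of resting fibroblasts, 12 of 17 in every library (beside 8.97% of all 7859 genes), with a median of -1.22 (-0.64 against cells of like depth, where all non-cycling cells of the same 10 libraries gave -1.43). Markers of macrophages were lower too, 9 of 9 in the mean and 4 in every library, with a median of -1.06 (-0.19 at like depth and -0.90 in the same 10 libraries) and a mean sum of 986 against 2602 CPM. Lyz2 was the most abundant of them in the non-cycling cells of each of the 13 libraries, where none of the 10 was at 0. The gate bears on these markers, since its limit of 1 UMI of Ptprc is stricter for the deeper proliferating cells. Its part in their lower level was not tested. The 3 measured pericyte and smooth muscle markers had a median of -1.38 (-0.74 at like depth). The part of such cells in the result for resting fibroblast genes was not tested. Clec3b, which encodes tetranectin, had a mean ratio of -2.85 ± 1.05, Scara5, a ferritin receptor of adventitial cells, -2.71 ± 0.69 and Apod, an apolipoprotein, -2.60 ± 1.21. Against cells of like depth these were -1.27, -0.76 and -1.31. The growth factor genes Igf1 and Gas6, a ligand of Axl, stood at -1.74 ± 0.82 and -1.94 ± 0.85. Outside the lists, Sfrp4, a secreted Wnt inhibitor (-3.18), and the complement gene C4b (-2.74) had the lowest ratios, which were -1.71 and -1.39 against cells of like depth. Cdkn1c, an inhibitor of cyclin-dependent kinases, was at -2.12 ± 0.59, whereas Cdkn2c, another inhibitor and a target of E2F, was at 2.00 ± 0.53. Matrix genes were a little lower (median -0.27), with Lum, a collagen-binding proteoglycan, at -0.85 ± 0.39 and Col3a1 at -0.77 ± 0.30. The activated fibroblast list had a median of 0.44 that became -0.08 against cells of like depth, so that no direction is given for it.

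**Figure D2:**
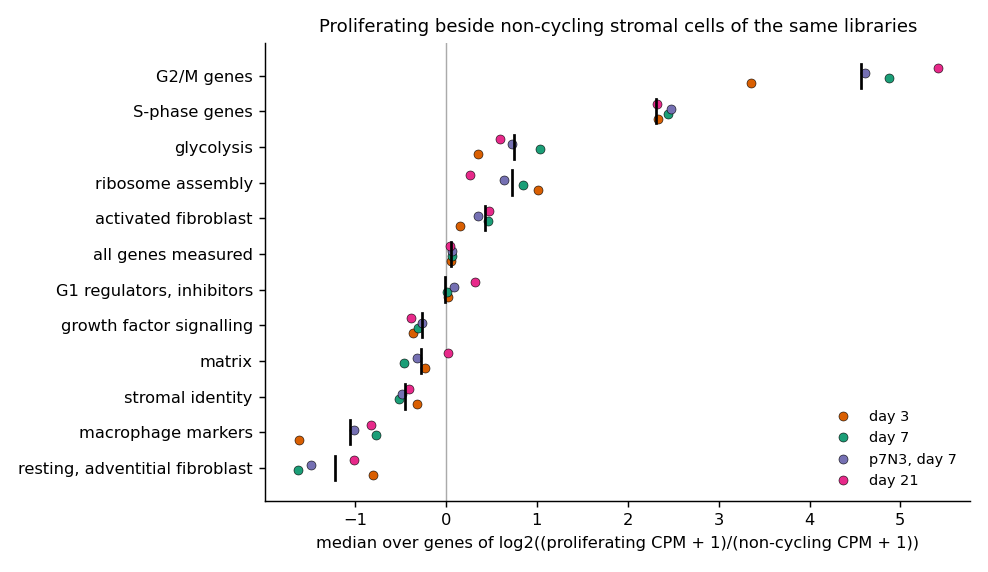
Median log2 ratio of proliferating over non-cycling stromal cells of the same library, by gene list (horizontal axis, log2 of CPM + 1). Each point is the value of a group, coloured by group. The black bar is the median over a list's genes of their mean ratio in all 13 libraries. It is 4.57 for G2/M genes and -1.22 for genes of resting fibroblasts.

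Most of the cells read more transcripts of G2 and mitosis than of S phase. After each cell was thinned to 5000 UMIs (10 shallower cells were left out), 884 of 1185 cells (74.6%) held more UMIs of the 44 G2/M genes than of the 38 S-phase genes, and 274 (23.1%) held fewer, with medians of 22 and 8 UMIs. The 2 sums lay within 2 UMIs of each other in 141 cells, and in 705 cells one sum was more than 2 times the other. Whether the split is a range or 2 types of cell was not tested. The share with more G2/M transcripts was 64.5%, 70.7% and 62.7% at day 3, 85.1%, 74.4%, 77.9% and 77.1% at day 7 and 83.3%, 76.3%, 69.9% and 70.9% with p7N3. At day 21 it was 100% of 10 cells and 89.5% of 38. The thinning came after the cells had been gated at full depth, which was greater at day 3 than at day 7. These shares are therefore not compared at an equal depth of the gate. With the gate itself read at 5000 UMIs, 107 cells of day 3 and 246 of day 7 remained, and the split is not given for these. The 5 genes of the gate are themselves best known from the later part of the cycle, so the split describes the gated cells and not all dividing stroma.

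Known motifs were searched in the promoters of these 2 gene lists, and the windows of 4 genes whose levels differed between days are shown to make them visible. Windows run from 250 bases before to 50 after the gene start (RefSeq, GRCm38.p6, printed 5′ to 3′ on the gene's strand). Capitals mark the cell cycle homology region TTTGAA, the CCAAT box CCAAT and the E2F-type motif TTTNNCGC, each on either strand. Ccnb2, Aurka and Cenpf are G2/M genes at chr9:70421505-70421804, chr2:172370521-172370820 and chr1:189688037-189688336, and Mcm3, of the helicase that opens DNA for replication, is at chr1:20820263-20820562, all on the minus strand.
Ccnb2: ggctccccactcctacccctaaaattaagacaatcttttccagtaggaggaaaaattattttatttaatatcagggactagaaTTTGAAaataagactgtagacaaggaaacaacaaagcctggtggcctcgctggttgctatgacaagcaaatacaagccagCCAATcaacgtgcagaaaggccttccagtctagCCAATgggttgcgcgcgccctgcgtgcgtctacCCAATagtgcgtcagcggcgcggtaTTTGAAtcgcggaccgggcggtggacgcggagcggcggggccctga
Aurka: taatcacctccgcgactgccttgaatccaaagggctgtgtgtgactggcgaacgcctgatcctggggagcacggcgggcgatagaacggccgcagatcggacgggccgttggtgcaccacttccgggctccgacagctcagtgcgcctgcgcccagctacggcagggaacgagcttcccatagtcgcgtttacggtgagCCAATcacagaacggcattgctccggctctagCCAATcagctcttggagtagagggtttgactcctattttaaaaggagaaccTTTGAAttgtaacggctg
Cenpf: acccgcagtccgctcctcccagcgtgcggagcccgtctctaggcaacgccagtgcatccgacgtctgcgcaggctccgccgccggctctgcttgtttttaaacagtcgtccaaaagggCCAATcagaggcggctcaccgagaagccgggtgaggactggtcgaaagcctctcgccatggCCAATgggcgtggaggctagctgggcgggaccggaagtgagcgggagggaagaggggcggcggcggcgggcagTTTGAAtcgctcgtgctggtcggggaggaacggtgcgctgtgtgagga
Mcm3: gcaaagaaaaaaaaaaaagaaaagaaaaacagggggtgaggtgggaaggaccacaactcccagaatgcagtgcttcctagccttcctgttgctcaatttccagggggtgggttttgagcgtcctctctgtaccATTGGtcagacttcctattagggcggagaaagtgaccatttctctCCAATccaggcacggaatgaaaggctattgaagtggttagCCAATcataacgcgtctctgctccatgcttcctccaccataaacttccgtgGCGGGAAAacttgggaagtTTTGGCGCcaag
Among 42 promoters of the G2/M list (38 of 44 genes matched), 69.0% held TTTGAA and 81.0% held CCAAT, against 17.9% and 37.4% of all 32851 promoters in the table. Both motifs were present in 57.1% of the G2/M promoters and in 6.95% of all. TTTNNCGC was found in 40.6% of 32 promoters of the S-phase list (27 of 38 genes matched), in 7.14% of the G2/M promoters and in 5.17% of all. In the S-phase promoters TTTGAA stood in 15.6% and CCAAT in 65.6%, so CCAAT was frequent in both lists. These are matches of letters, not measured binding sites.

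Day 3 was compared with day 7 within the proliferating cells, to describe how the dividing stroma of the early wound differs from that of the first week. Counts were summed per library and tested by edgeR over 10909 genes, of which 1444 (13.2%) were higher and 1408 (12.9%) lower at day 3 at an adjusted p under 0.05. Dividing cells of day 3 carried fewer mitotic transcripts, far fewer contractile, tendon and cartilage transcripts, less collagen VI and lumican, and more of several inflammatory mediators and of leukocyte markers. The contractile, matrix and inflammatory changes were not particular to dividing cells. Non-cycling stromal cells of the same libraries changed by a similar amount in the median of these lists, as given below. Both day 3 and day 21 below are set against the same 4 libraries of day 7.

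Of the 44 G2/M genes, 39 fell at day 3 and none rose, with a median log2 fold change of -0.73 beside -0.02 over all genes tested. Aurka, the kinase that matures spindle poles (Aurora A), was at 38.3, 28.6 and 26.4 CPM at day 3 and 67.9, 88.2, 79.9 and 75.9 CPM at day 7 (log2 fold change -1.22 ± 0.15 (SE), adjusted p = 0.000191 by edgeR). Cenpf, a kinetochore protein of G2 and mitosis, was at 48.7, 48.6 and 34.6 CPM and 97.9, 116, 159.9 and 112 CPM (log2 fold change -1.34 ± 0.18 (SE), adjusted p = 0.000293 by edgeR). Every library of day 3 lay below every library of day 7 for both genes. Kif20b, a kinesin of cytokinesis, and Ndc80, which binds microtubules at kinetochores, had the largest changes of the list (-1.42 and -1.45). Of the 38 S-phase genes, 7 fell and none rose, with a median of -0.07, and Tyms, which makes thymidylate, fell from 130.4 ± 7.95 (SD) to 76.2 ± 8.16 CPM. The cells of day 3 were deeper, so the gate was also read after thinning each cell to 5000 UMIs, which kept 107 cells of day 3 and 246 of day 7. In these, 23 of the 44 G2/M genes fell, with a median of -0.48, beside 7.77% of all genes lower and 9.15% higher in that fit. Summed over the list, G2/M transcripts came to 3278 ± 224 CPM at day 3, 5532 ± 341 at day 7, 5375 ± 653 with p7N3 and 7115 ± 1741 (n = 2) at day 21.

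**Figure D3:**
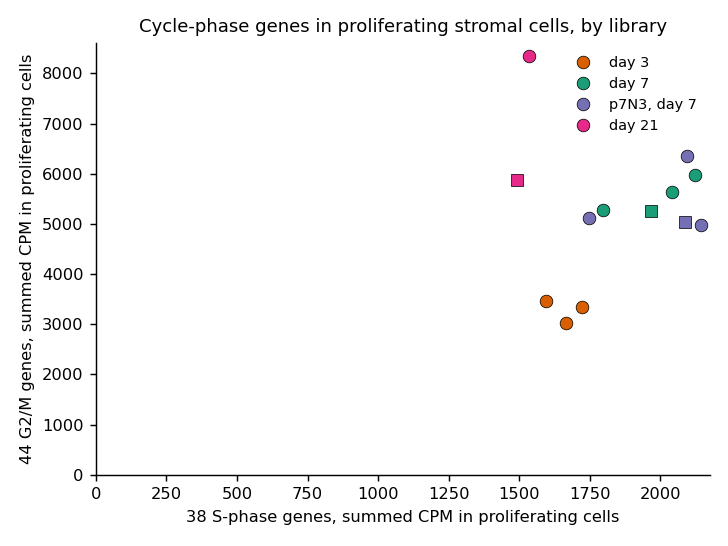
Summed CPM of 38 S-phase genes (horizontal axis) and of 44 G2/M genes (vertical axis) in the proliferating cells of each of 13 libraries, coloured by group, with squares for replicate 4. The 3 libraries of day 3 lie below all others on the vertical axis.

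The contractile and matrix transcripts of activated fibroblasts were low in the dividing cells of day 3. In the activated fibroblast list 14 of 15 genes fell and none rose, with a median of -1.98. Acta2 (smooth muscle actin, chr19:34241090-34255590 in mm10), which marks myofibroblasts, was at 87.0, 119 and 129 CPM at day 3 and at 2147, 1879.7, 1022 and 2045 CPM at day 7 (log2 fold change -3.89 ± 0.26 (SE), adjusted p = 3.57e-06 by edgeR). Tagln (chr9:45929619-45936058), an actin-binding protein of contractile cells, was at 16.2, 20.6 and 25.7 CPM and at 727, 621, 425 and 883 CPM (log2 fold change -4.91 ± 0.27 (SE), adjusted p = 8.22e-07 by edgeR). The 2 sets of libraries were separated by a wide gap for both genes. Lrrc15, a membrane protein of collagen-rich fibroblasts, and Myl9, a myosin light chain, fell with log2 fold changes of -2.92 and -3.02. In the matrix list 14 of 18 genes fell and none rose, among them Lum (286 ± 107 against 1117 ± 184 CPM) and the collagen VI genes Col6a1, Col6a2 and Col6a3 (the last 254, 224 and 242 CPM against 1139, 754, 846 and 790.1 CPM). Col3a1 had a log2 fold change of -0.22 and was not called.

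Genes of tendon and cartilage were lower as well. All 7 measured tendon genes of 8 fell, including the tendon transcription factor Scx (17.2 ± 11.7 against 104 ± 44.7 CPM) and the membrane protein Tnmd at 12.2, 15.9 and 3.96 CPM against 119, 157, 239 and 68.2 CPM (log2 fold change -3.58 ± 0.45 (SE), adjusted p = 0.000231 by edgeR). Kera, the proteoglycan keratocan, was at most 0.885 CPM in a library of day 3 and at 37.8, 51.2, 69.3 and 15.1 CPM at day 7. Of 8 measured cartilage genes 5 fell, among them Acan, the aggrecan core protein (15.9 ± 5.15 against 155 ± 75.8 CPM), and Col11a1 (log2 fold change -3.16), whereas Sox9, the chondrocyte transcription factor, had -0.59 and was not called. In the bone list 5 of 12 genes were measured, with a median of 0.42 and 3 positive estimates, none called higher. Spp1 (osteopontin) and Runx2, a transcription factor of osteoblasts, fell in it (-2.27 and -0.66).

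Of 14 inflammatory mediators, a list of chemokines, cytokines and related genes, 8 rose at day 3 and none fell, with a median of 1.49. Cxcl14 (chr13:56288643-56296551), a chemokine of stroma and epithelium, was at 3491, 2871 and 2299.8 CPM at day 3 and at 335, 137, 192 and 202 CPM at day 7 (log2 fold change 3.85 ± 0.26 (SE), adjusted p = 3.57e-06 by edgeR). Ccl2, which attracts monocytes, was at 1513, 1594 and 1336 CPM and at 250.4, 462, 165 and 492 CPM (log2 fold change 2.21 ± 0.29 (SE), adjusted p = 0.000319 by edgeR). Ccl7, a related monocyte attractant, and Cxcl2, a neutrophil attractant, rose by 2.58 and 2.54, whereas Il6 had 0.92 and was not called. Markers of leukocytes moved with these genes. All 10 macrophage markers (median 2.07) and all 4 measured neutrophil markers of 5 (median 3.77) rose, the former summing to 2488 ± 121 against 643 ± 134 CPM and the latter to 1798 ± 511 against 138 ± 46.0 CPM. Lyz2 was the most abundant macrophage marker (928 ± 82.0 against 265 ± 91.1 CPM), S100a8 reached 916 ± 291 CPM at day 3, and none of the macrophage markers was at 0 there. The part of leukocyte RNA in the result for the inflammatory mediators was not tested. Without the cells that held a Ptprc UMI, 9 of 14 inflammatory mediators and all 9 measured macrophage markers were called higher, beside 11.8% of all genes in that fit. Chil3, Retnlg, Ifitm6 and Fpr1, which neutrophils and monocytes express, were among the 8 largest increases, and Tnf rose from 2.08 ± 0.671 to 41.0 ± 15.3 CPM. Aldh1a2, which makes retinoic acid, rose from 4.01 ± 2.71 to 68.6 ± 33.4 CPM. Among the largest decreases were Dlk1, a Notch-related protein of progenitors (1.38 ± 0.553 against 60.6 ± 66.1 CPM), Col7a1, the collagen of anchoring fibrils (0.219 ± 0.221 against 32.3 ± 24.5 CPM), and Spock3, a proteoglycan (0.0738 ± 0.128 against 21.7 ± 16.8 CPM).

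Regulators of the cell cycle's first gap phase moved in both directions, 5 higher and 6 lower of 23. Myc, a transcription factor of growth, was at 55.3, 55.7 and 62.0 CPM at day 3 and 31.2, 29.0, 24.9 and 30.2 CPM at day 7 (log2 fold change 1.10 ± 0.12 (SE), adjusted p = 7.2e-05 by edgeR). The kinase inhibitors Cdkn2a (4.61 ± 2.35 against 22.6 ± 10.4 CPM), Cdkn2b (8.04 ± 1.89 against 32.4 ± 10.2) and Cdkn1c (12.97 ± 7.21 against 54.7 ± 23.9) were the 3 largest decreases of that list. In the ribosome assembly list 4 of 14 genes rose and none fell (median 0.34). In glycolysis 2 of 13 rose, a share near the 13.2% of all genes called higher, with a list median of 0.06, and one of them was the hexokinase Hk2 at 132, 172 and 178 CPM against 75.7, 37.6, 42.9 and 68.0 CPM (log2 fold change 1.63 ± 0.21 (SE), adjusted p = 0.000279 by edgeR). Of 23 growth factor genes 4 fell, a share near the 12.9% of all genes called lower. The 4 included Tgfb2 (29.0 ± 2.87 against 75.5 ± 6.34 CPM), and Tgfb1 was not called (60.8 ± 3.23 against 79.3 ± 18.8 CPM). In the resting fibroblast list Gsn (gelsolin), Cxcl12, Anxa3 and Cd248 rose, 4 of 16 measured, and none fell.

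**Figure D4:**
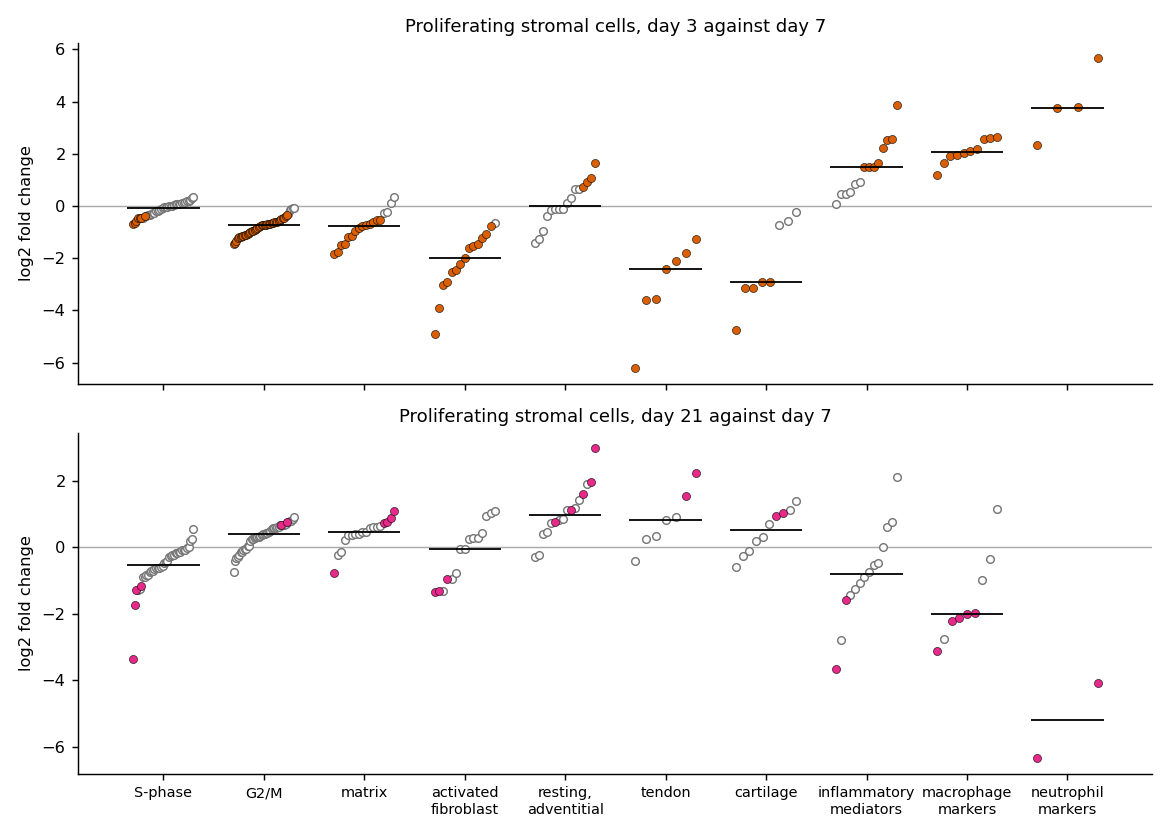
Log2 fold change of each gene of 10 lists in proliferating stromal cells, at day 3 (top) and at day 21 (bottom) against the same 4 libraries of day 7. Filled points passed an adjusted p of 0.05 by edgeR, open points did not, and the line is the list's median. At day 3 the G2/M, activated fibroblast and tendon genes lie below 0 and the macrophage and neutrophil markers above it.

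At day 21 dividing stromal cells were rare, and the libraries with at least 10 of them were replicate 1 (10 cells) and replicate 4 (38 cells). Replicates 2 and 3, with 3 and 2 cells, are left out of what follows. Against day 7, edgeR called 253 of 9887 genes higher (2.56%) and 133 lower (1.35%). The calls included 5 of 16 measured genes of resting fibroblasts and 2 of 7 tendon genes, all higher, and 4 of 38 S-phase genes, 3 of 15 activated fibroblast genes and 2 of 14 inflammatory mediators, all lower, so that most members of each list were not called. Of the 53 cells 10 (18.9%) were in the top 3.9% of doublet scores by Scrublet, against 29 of 440 (6.59%) at day 7. Without the cells in that top range 59 genes were called in place of 386, and of the 46 genes named by rule 8 were called again, although none of the 46 changed sign. With a replicate block 181 genes were called, and 24 of the 46 were called again, none with a changed sign. Calls were also lost on leaving out a day 21 library, which leaves 1 there, as given in the last section.

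Of 38 S-phase genes 4 fell and none rose (median -0.52 beside -0.01 over all genes). Ung (chr5:114130386-114139323), which removes uracil from DNA, was at 0 and 2.59 CPM at day 21 and at 21.6, 21.9, 24.9 and 18.7 CPM at day 7 (log2 fold change -3.36 ± 0.52 (SE), adjusted p = 0.00884 by edgeR). Hells, a chromatin remodeller, was at 8.91 and 15.6 CPM and 44.4, 43.3, 55.6 and 47.2 CPM (log2 fold change -1.74 ± 0.27 (SE), adjusted p = 0.00884 by edgeR), and Mcm3, whose promoter is printed above, at 14.9 and 18.2 CPM and 32.4, 48.4, 47.6 and 43.1 CPM (log2 fold change -1.29 ± 0.28 (SE), adjusted p = 0.0327 by edgeR). The libraries of the 2 days did not overlap for these genes. Of the 44 G2/M genes, Anln and Ccnb2 rose (0.76 and 0.66) and none fell. Cdkn2c rose from 106 ± 25.5 to 193 ± 29.0 CPM and Trp53, the p53 gene, fell from 97.3 ± 15.3 to 52.5 ± 2.79 CPM.

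Among connective tissue genes, Fmod (chr1:134037254-134048277), the tendon proteoglycan fibromodulin, was at 945 and 599 CPM at day 21 and at 116, 176, 219.7 and 146 CPM at day 7 (log2 fold change 2.24 ± 0.24 (SE), adjusted p = 0.00158 by edgeR). Tnmd rose too (1.54), which made 2 of 7 measured tendon genes, and Col11a1 and Sox9 rose in the cartilage list (1.04 and 0.94, 2 of 10). Prelp, a proteoglycan of basement membranes and cartilage, was at 496 and 175 CPM and at 25.8, 31.6, 55.6 and 44.1 CPM (log2 fold change 3.04 ± 0.36 (SE), adjusted p = 0.0025 by edgeR). In the matrix list Lum, Fbn1, Col1a2 and Sparc rose and the collagen chaperone Serpinh1 fell, of 18. Acta2 was at 627 and 766 CPM and fell (log2 fold change -1.32), as did Tagln (-1.33) and Tpm2 (-0.94), 3 of 15 activated fibroblast genes. Of 16 measured genes of resting fibroblasts 5 rose, among them Pi16, a marker of adventitial progenitors (300.1 and 124 against 60.6, 21.1, 74.6 and 54.4 CPM), and Cd55 (125 and 33.7 against 7.21, 8.25, 8.47 and 9.10 CPM). Igf2, a growth factor of fetal tissues, was at 193 and 72.6 CPM against 9.01, 5.12, 5.29 and 20.8 CPM (log2 fold change 3.46 ± 0.52 (SE), adjusted p = 0.00847 by edgeR). Wnt16, a Wnt ligand, rose from 0.496 ± 0.359 to 10.1 ± 1.64 CPM, and Cyp26b1, which degrades retinoic acid, from 7.73 ± 4.11 to 78.0 ± 57.8 CPM. For Prelp, Pi16, Cd55, Igf2 and Cyp26b1 the 2 libraries of day 21 differed more than 2-fold from each other, with replicate 1 the higher.

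Of 14 inflammatory mediators 2 fell at day 21 and none rose, with 4 positive estimates and a median of -0.81. Cxcl2 was at 8.91 and 12.97 CPM against 127, 136, 158 and 189.9 CPM (log2 fold change -3.65 ± 0.29 (SE), adjusted p = 0.000437 by edgeR), and Cxcl1 fell too (log2 fold change -1.58). Cxcl14 was at 425 and 300.0 CPM against 335, 137, 192 and 202 CPM and was not called. Of 9 macrophage markers 5 fell, with Lyz2 at 29.7 and 29.4 CPM, as did both measured neutrophil markers, and their part in the result for Cxcl2 and Cxcl1 was not tested. Ms4a7, a macrophage gene, was read in neither library of day 21. Rgs5 rose (2.30) but was at 11.9 and 97.7 CPM in the 2 libraries, so replicate 4 alone carried the change and the sign turned without it (-0.26). Haemoglobin transcripts summed to 196 CPM in replicate 1 and 8542 CPM in replicate 4 of day 21.

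The effect of p7N3 on dividing stromal cells at day 7 was small by number of genes. Of 9906 genes 3 were called (0.0303%), and 523 had an unadjusted p under 0.05. Rgs5 (chr1:169655501-169695813), a regulator of G protein signalling known from pericytes, was at 53.0, 145, 94.7 and 89.5 CPM with the peptide and at 12.6, 8.25, 18.5 and 17.5 CPM without it (log2 fold change 2.75 ± 0.31 (SE), adjusted p = 0.0108 by edgeR). Ctgf (now Ccn2, chr10:24595442-24598683), a matricellular growth factor, was at 30.3, 31.8, 53.3 and 39.7 CPM and at 176, 154, 105 and 93.6 CPM (log2 fold change -1.76 ± 0.23 (SE), adjusted p = 0.0303 by edgeR). The libraries with and without peptide did not overlap for either gene. The third was Gm13889, a gene model outside the naming rule that is given since it completes the count (log2 fold change 2.26). None of the 3 was called with replicates 1 to 3 only, with 4 of the 5 cycle genes required, in a fit of all groups together, with a replicate block or with the gate read at 5000 UMIs, and Ctgf also lost its call on leaving out any of 6 of the 8 single libraries. The log2 fold changes in the first 3 of these settings were 2.94, 3.30 and 2.74 for Rgs5 and -1.92, -1.79 and -1.76 for Ctgf, against 2.75 and -1.76 in the main comparison, and they were 2.75 and -1.73 with the block and 2.78 and -1.4998 with the gate at 5000 UMIs. The pericyte and smooth muscle markers as a list summed to 122 ± 40.3 CPM with p7N3 and 26.4 ± 8.19 without it, most of it Rgs5, and the part of such cells in the result was not tested.

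No cycle gene was called for p7N3. The S-phase and G2/M lists had medians of 0.01 and -0.03, with all 82 genes between -0.35 and 0.49. All 7 measured tendon genes had lower estimates (median -0.71) and 13 of 14 inflammatory mediators higher ones (median 0.45), none of them called. Tnmd illustrates the spread behind this, with 53.4, 214, 65.8 and 29.7 CPM in the libraries with peptide and 119, 157, 239 and 68.2 CPM in those without. Haemoglobin transcripts had lower estimates too (median -2.63 over 4 genes, none called). Both measured neutrophil markers (median 0.62) and all 14 ribosome assembly genes (median 0.24) had higher estimates, none called. Of 9 macrophage markers 5 had higher and 4 lower estimates (median 0.02). The part of leukocyte RNA in the estimates of inflammatory mediators was not tested. Cxcl1 was at 346, 524, 1161 and 1478 CPM with peptide, where replicates 3 and 4 lay above every day 7 library, replicate 2 lay within their range and replicate 1 below it (449, 716, 617 and 719 CPM). Sox9 (61.3 ± 8.06 against 53.1 ± 10.9 CPM) and Acan (97.7 ± 54.0 against 155 ± 75.8 CPM) were not called.

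**Figure D5:**
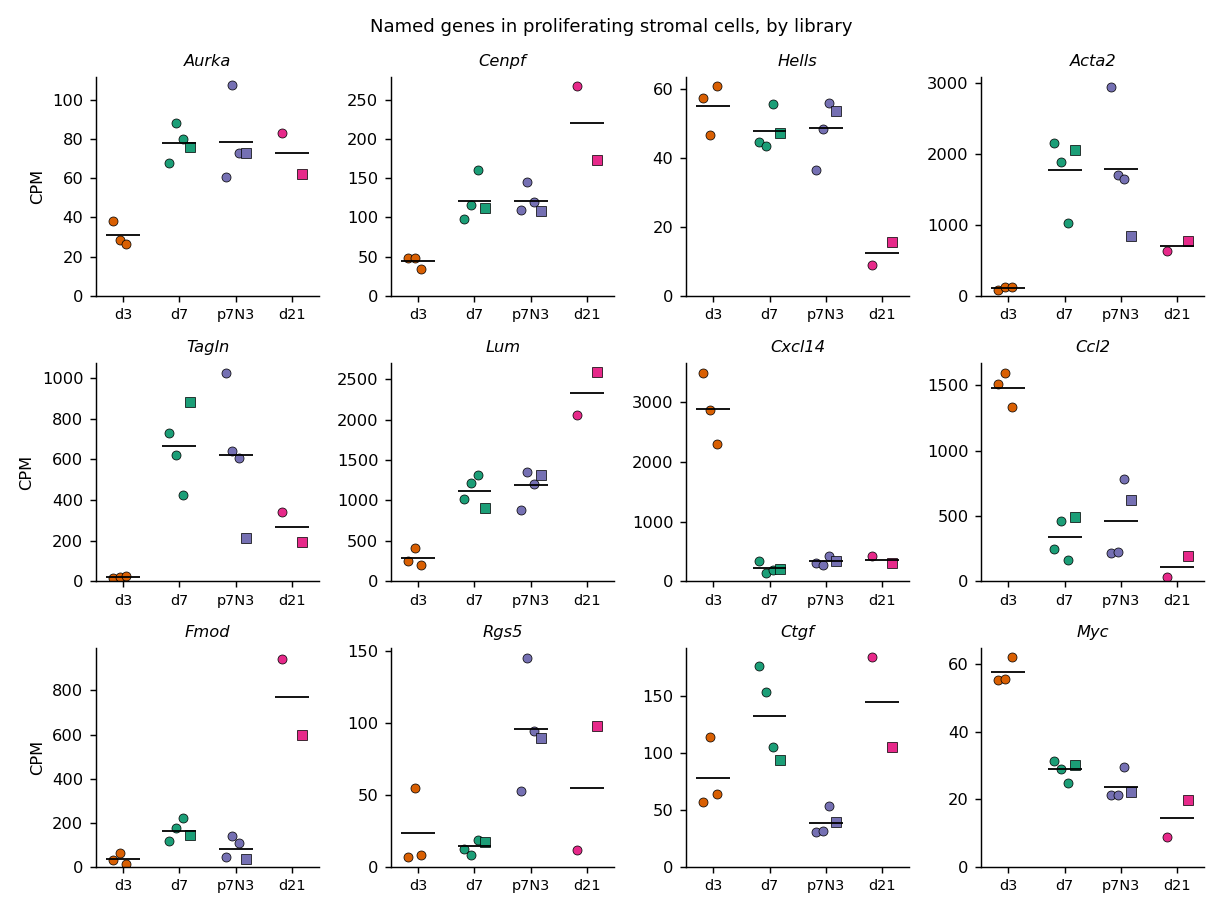
CPM of 12 genes in the proliferating stromal cells of each library (vertical axes, each starting at 0), by group, with day 3 (d3), day 7 (d7), day 7 with p7N3 and day 21 (d21). Circles are replicates 1 to 3, squares replicate 4 and lines group means. Acta2 and Tagln are lowest at day 3, Cxcl14 and Ccl2 highest there, and Rgs5 and Ctgf separate p7N3 from day 7.

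Whether dividing and non-cycling stromal cells changed unequally was tested as the difference of their log2 fold changes in the same libraries, by edgeR with the library as a block. Between day 3 and day 7, 449 of 11950 genes differed (3.76%), 239 with a higher and 210 with a lower value in the dividing cells, and with relative log expression factors in place of TMM 187 and 284. Without cells that held a Ptprc UMI, 170 of 11122 genes differed. The libraries of day 3 held only 6, 9 and 5 non-cycling cells of like depth, too few for a fit against these. Macrophage markers were lower in dividing than in non-cycling cells at day 3 (median log2 ratio -1.61). The part of leukocyte RNA and of depth in these differences was not tested. Itm2a, a membrane protein of mesenchymal and muscle precursors, was at 96.3 CPM in dividing and 109 CPM in non-cycling cells at day 3 but at 447 and 1455 CPM at day 7 (difference 1.60 ± 0.19). Dpep1, a membrane dipeptidase, had 72.1 and 121 CPM at day 3 against 8.78 and 62.1 CPM at day 7 (difference 1.99 ± 0.19), so that its relative rise was larger in the dividing cells. Plaur, the urokinase receptor, was close to level in dividing cells (72.7 and 75.2 CPM) and higher at day 3 in non-cycling cells (106 against 42.7 CPM, difference -1.42 ± 0.17). Of the lists, 6 of 18 genes of resting fibroblasts differed upward and none downward, and of 13 glycolysis genes 1 differed upward and 6 downward. The activated fibroblast list had a median difference of 0.0009, with 1 of 15 genes called, and the matrix list 0.24, with 2 of 18. Inflammatory mediators had 0.03, with 2 of 14 called upward and 2 downward. Tendon genes had -1.43, with 2 of 7 called downward. Cenpa, the centromeric histone, and 9 more of the 44 G2/M genes differed downward, and the gate bears on these genes, since it left out non-cycling cells with a UMI of its 5 cycle genes.

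Between day 21 and day 7, 9 of 12510 genes differed (0.0719%). Col2a1, the collagen of cartilage, was at 351 against 6.72 CPM in the non-cycling cells, while the dividing cells had 8.75 and 9.002 CPM (difference -5.63 ± 0.61, adjusted p = 0.00515 by edgeR). Most of this came from replicate 4, and the Col2a1 call was lost without that library (difference -4.15), without day 7 replicate 2 (-4.01) and against non-cycling cells of like depth (-2.03). H19, an imprinted noncoding RNA, was at 286 CPM against 1112 CPM in the non-cycling cells and at 506 against 462 CPM in the dividing cells (difference 2.11 ± 0.23). Stmn1, a regulator of microtubules, Ccnb2, Spc24, of the kinetochore, and Hmgn2, a nucleosome-binding protein, differed upward, and the gate bears on such genes of dividing cells here too, since Ccnb2 was at 1.06 and 4.99 CPM and Spc24 at 1.66 and 5.73 CPM in the non-cycling cells of day 21 and day 7. Cst3, a protease inhibitor, differed downward (-0.79), but the sign turned against non-cycling cells of like depth (0.0208). For p7N3 no gene of 11820 differed (0%) by edgeR, 728 had an unadjusted p under 0.05, and DESeq2 was not run on these differences.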

How the data were processed

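Single-cell libraries of hindlimb tissue were sequenced, and the authors processed them with Cell Ranger and Seurat. The deposited matrices hold counts, whole UMIs per gene and barcode, for 19 libraries. The labels list both GRCh38 and mm10, the gene identifiers are those of mouse, and coordinates are given in mm10. Day 0 replicate 1 was deposited with all 737280 barcodes, so its cells rest on the filters used here. Libraries held 571 to 3668 cells and 3019467 to 39870492 UMIs after the filters.

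Members and gene lists were chosen with earlier results of these data known. UMIs of the selected cells were summed per library with at least 10 such cells and tested with edgeR 4.0.16 (TMM, quasi-likelihood) in R 4.3.3, with Benjamini-Hochberg adjustment over all genes and a threshold of 0.05. DESeq2 1.42.0 was an alternative. Levels printed per library are CPM, a gene's share of the UMIs of those cells. Shares were compared over libraries with exact permutation tests (scipy 1.17.1), and limits for a count of 0 (3 counts) cover counting error only. The test over all stromal cells and the gate read at 5000 UMIs were added after the data were seen. No doublets were removed for the main values. As an alternative the top 3.9% of Scrublet scores (scanpy 1.11.5) in each library, the multiplet rate in the labels, was left out. The tests were tried on simulated counts, where the comparison at day 21, with 2 libraries, recovered fewer of the altered genes and gave a larger share of false calls than the other comparisons. Named genes were the 8 largest changes in each direction among genes past the threshold without overlap between groups and with at least 10 CPM in the higher group (gate genes and unnamed genes left out), up to 4 genes past the threshold per list, and for differences between cycling and non-cycling cells the 5 smallest p in each direction. Other list members are named as examples. Against non-cycling cells up to 4 genes per list and 5 in each direction outside the lists (at least 20 CPM) were taken.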

Additional observations from a re-analysis of the deposited data

Results flagged for a closer look

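Sample values were examined in 180 groups of at least 4 libraries, and in 16 the highest or lowest library stood apart from the others by the gap relative to the range. In independent groups of normally distributed values about 9.0 would be flagged. The groups here share libraries and genes, as with Spp1 and the bone list that holds it, so no excess is read from these counts. In day 7 replicate 3, the proliferating cells had 2004 CPM of Spp1, 2066 CPM over the bone list, 80.5 CPM of Axl, 41.3 CPM of Clspn, 1258 CPM over the 5 cycle genes of the gate and 100.0 CPM of Wfdc18. In replicate 4 they had 104 CPM of Gnl3, and in replicate 1 they had 7.21 CPM of Chchd10. Among p7N3 libraries, replicate 2 had the highest sums for the G2/M list (6351 CPM), the gate's cycle genes (1267 CPM) and macrophage markers (852 CPM), and replicate 1 the lowest sum for the S-phase list (1747 CPM). Schwann cell markers were highest in replicate 1 of day 7 (15.01 CPM) and of p7N3 (17.8 CPM). In day 0 replicate 1 a single macrophage of 75 passed the cycle part of the gate (1.33%), which set the stroma at -1.33 percentage points beside it.

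In 17 genes, those with the smallest p by the naming rule, the change between days differed between proliferating and non-cycling stromal cells by edgeR, given here as the difference of the log2 fold changes. At day 21 against day 7 these were H19 (2.11), Stmn1 (2.32), Ccnb2 (2.83), Spc24 (2.15), Hmgn2 (1.05), Col2a1 (-5.63) and Cst3 (-0.79, but 0.0208 against non-cycling cells of like depth, where the Col2a1 call was also lost). At day 3 against day 7 they were Dpep1 (1.99), Egr1 (1.11), Plagl1 (2.50), Cxcl13 (9.36, at low counts), Itm2a (1.60), Cenpa (-2.52), Hmgb2 (-1.41), Aqp1 (-1.71), Tspo (-1.20) and Plaur (-1.42). The cause of these differences was not tested.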

How the results depend on the processing

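The cells are few at day 21 (53), and fits that leave 1 library there assume that it varies like those of day 7. For p7N3, the 3 genes called became 5 with DESeq2, 10 without a filter on low counts, 0 with replicates 1 to 3 only, in a single fit of all groups, with 4 of 5 cycle genes or with the gate read at 5000 UMIs, 1 with 2 of 5 cycle genes, and 1 to 2 without 1 library. Over all stromal cells the 0 calls became 130 with DESeq2, 1 with replicates 1 to 3 and 0 to 8 without 1 library. The difference in summed cycle genes ranged from -13.6 to 25.1 CPM without 1 library, and that in the gap to macrophages was -0.113 points after thinning and -0.0792 to 3.00 without 1 library. At day 21, 386 calls became 923 without a filter, 179 with replicates 1 to 3, 697 in a single fit, 59 without the top doublet scores, 51 with the gate at 5000 UMIs and 82 to 425 without 1 library, and of 46 named genes 11 were called without day 21 replicate 1 and 22 without replicate 4. At day 3, 2852 calls became 1601 with the gate at 5000 UMIs and 1890 to 2740 without 1 library. Differences between cycling and non-cycling cells became 97 for p7N3, 353 for day 21 and 946 for day 3 without a filter, 35 for day 21 against non-cycling cells of like depth (day 3 could not be fitted), 170 for day 3 without Ptprc, and 0 to 1, 5 to 45 and 201 to 458 without 1 library. Signs turned for Chchd10 (-0.27, gate at 5000 UMIs), for Rgs5 at day 21 (-0.11 with replicates 1 to 3, -0.26 to 2.83 without 1 library, the lowest without day 21 replicate 4), for Cst3 (0.0208) and for the activated fibroblast median (-0.0781), both of these against cells of like depth. The cause was not tested. Same-numbered libraries did not deviate together in every pair (correlations of 0.291, -0.259, -0.227 and 0.369 for p7N3 and day 7), and a replicate block gave 0, 181 and 1653 calls for p7N3, day 21 and day 3.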
